A study of Drosophila melanogaster with 8 samples.

Results

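The 10 genes described here, of 18277 annotated without transposable elements, encode the proteins that license DNA for replication in *Drosophila melanogaster*: *Orc1*, *Orc2* and *Orc6* of the origin recognition complex, *dup* (the fly Cdt1), *geminin*, and *Mcm2*, *Mcm3*, *Mcm5*, *Mcm6* and *Mcm7* of the replicative helicase. They were chosen by name, and each was examined over its gene body and the 3000 bp upstream, called its window. The question was where NanoDam bound to the zinc finger transcription factor Chronophage (Cph), the fly homologue of BCL11, marked these windows in intestinal progenitors, relative to unbound NanoDam.

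NanoDam is a nanobody against GFP and its variants fused to the Dam methylase, which methylates GATC sequences near the tagged protein. In the 4 Cph NanoDam samples (CphYFP x UAS-NanoDam x esgTS) the esgTS driver expressed NanoDam in midgut progenitors of flies whose endogenous Cph carried YFP. The 4 NanoDam-only control samples (UAS-NanoDam x esgTS) had the same driver and the same NanoDam but no tagged protein. All 8 came from adults of 3 to 5 days reared at 18 °C and kept at 29 °C for 17 h, with 30 midguts pooled in each. Genomic DNA was taken from the whole midgut, while NanoDam was driven in progenitors, so more methylated cells and more methylation per cell cannot be told apart. The labels put the third and the fourth replicate of each group in batch 2 and give the others no batch.

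A replication origin is licensed when the origin recognition complex binds DNA in late mitosis and G1 and, with Cdc6 and Cdt1, loads the MCM helicase. Geminin binds Cdt1 and blocks loading once S phase has begun, so that each origin fires no more than once per cycle. Genes of this pathway are classic targets of E2F and are transcribed in cells that enter S phase, which in the adult midgut are dividing stem cells and also cells on the way to enterocytes, which endocycle.

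The libraries held 55557571 to 107278227 reads for Cph NanoDam and 70573626 to 125721243 for the control, and in each pair the control was deeper by 1.14 to 1.31 times. Peaks called without a control covered 9.87 to 12.6% of the genome in Cph NanoDam and 11.3 to 12.9% in the control. Replicate 1 of Cph NanoDam stood apart: its log2 pileup correlated, on average over libraries, with r = 0.820 within its own genotype and 0.840 with the other (over 16229 regions that share libraries, a description). For replicate 4 of Cph NanoDam the values were 0.859 and 0.862, and for every other library the first was the higher. Results that rest on pair 1 are therefore also given without it. Peaks are not a measure of expression, and the tissue label could not be checked from them: in the control libraries the windows of the progenitor genes *esg* and *Delta* had 39.8 and 36.3% of their bases in peaks, those of the enterocyte genes *Myo31DF* and *nub* 25.0 and 7.37%, those of the enteroendocrine genes *pros* and *AstC* 7.55 and 1.86%, and those of *elav* and *Mhc*, of neurons and muscle, 23.6 and 6.43%.

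Methylation can be read only at GATC, so the smallest stretch that can be resolved is the fragment between neighbouring GATC sequences. For each gene of this set with a sequence printed here, the first 300 bases under its peak of highest fold enrichment over the control outside annotated UTRs are shown, with the GATC sequences that bound and divide them. Bases are from the RefSeq genome of release 6, written 5′ to 3′, and the capitals mark GATC. Each run starts at the GATC whose last base lies 8 bp before the peak.
Orc2 coding exon, 3R:13966085-13966384, plus strand: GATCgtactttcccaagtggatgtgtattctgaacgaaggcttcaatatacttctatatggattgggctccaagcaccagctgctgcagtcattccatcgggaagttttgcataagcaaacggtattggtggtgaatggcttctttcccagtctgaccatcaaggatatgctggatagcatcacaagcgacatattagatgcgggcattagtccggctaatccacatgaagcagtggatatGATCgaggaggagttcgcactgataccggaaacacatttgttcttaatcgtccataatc
Mcm2 coding exon, 3R:8267314-8267613, plus strand: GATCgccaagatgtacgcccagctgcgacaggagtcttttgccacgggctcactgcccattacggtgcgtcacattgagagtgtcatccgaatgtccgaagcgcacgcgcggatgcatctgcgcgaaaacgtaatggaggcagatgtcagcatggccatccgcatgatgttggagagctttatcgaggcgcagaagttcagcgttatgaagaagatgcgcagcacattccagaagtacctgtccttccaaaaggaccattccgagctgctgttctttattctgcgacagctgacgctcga
Mcm3 coding exons and the intron between them, X:5325233-5325532, plus strand: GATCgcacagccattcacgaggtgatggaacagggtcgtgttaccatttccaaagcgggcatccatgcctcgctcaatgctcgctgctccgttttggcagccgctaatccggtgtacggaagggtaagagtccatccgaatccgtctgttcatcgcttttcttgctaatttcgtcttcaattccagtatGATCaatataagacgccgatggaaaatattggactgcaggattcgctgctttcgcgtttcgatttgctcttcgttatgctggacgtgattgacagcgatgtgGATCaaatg
Mcm5 coding exon, 3R:10789451-10789750, plus strand: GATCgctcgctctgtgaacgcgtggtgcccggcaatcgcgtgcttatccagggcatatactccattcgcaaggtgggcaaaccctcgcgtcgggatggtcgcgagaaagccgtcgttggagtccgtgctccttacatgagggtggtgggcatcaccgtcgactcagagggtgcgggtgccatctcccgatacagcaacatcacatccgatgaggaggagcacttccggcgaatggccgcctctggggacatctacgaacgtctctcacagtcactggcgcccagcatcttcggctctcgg
Mcm6 window, coding exon of CG3198, X:6672775-6673074, plus strand: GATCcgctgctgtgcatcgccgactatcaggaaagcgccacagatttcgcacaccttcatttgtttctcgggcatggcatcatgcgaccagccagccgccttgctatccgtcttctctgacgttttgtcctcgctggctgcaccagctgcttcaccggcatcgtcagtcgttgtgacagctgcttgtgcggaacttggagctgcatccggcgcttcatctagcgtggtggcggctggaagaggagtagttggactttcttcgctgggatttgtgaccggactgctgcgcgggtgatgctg
Mcm7 window, coding exons of dally and the intron between them, 3L:8888704-8889003, plus strand: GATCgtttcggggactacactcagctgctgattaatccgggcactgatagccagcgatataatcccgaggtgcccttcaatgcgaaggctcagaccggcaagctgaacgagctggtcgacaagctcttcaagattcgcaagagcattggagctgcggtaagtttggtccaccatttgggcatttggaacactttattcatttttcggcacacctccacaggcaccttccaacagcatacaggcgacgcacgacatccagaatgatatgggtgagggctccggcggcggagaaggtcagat

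The *Mcm7* run is 1 base short of its whole fragment and holds a single GATC, the one at its start. Bases 157 to 220 of that run are a *dally* intron, and bases 124 to 186 of the *Mcm3* run an *Mcm3* intron, while the other 4 runs are exonic throughout. The runs of *Mcm2*, *Mcm5* and *Mcm6* also hold 1 GATC, that of *Orc2* holds 2 and that of *Mcm3* holds 3. GC content ranged from 45.3% (*Orc2*) to 61.0% (*Mcm5*), against 42.1% over the genome. The windows held between 1.94 GATC per kb (*geminin*, 8 in all) and 6.91 per kb (*Mcm6*, 40 in all), with a median of 4.21 against 3.35 over all genes. Of the 136 edges of peaks called over the control in these windows, 72 (52.9%) lay exactly 8 bp from the nearest GATC base, against 45.6% for all such peaks.

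The 4 lists in which each Cph NanoDam library was called against the control of the same number (Cph-over-control peaks) placed 68 peaks in the 10 windows, at 25 loci. Of these loci 6 were present in all 4 replicates, 8 in 3, 8 in 2 and 3 in 1. A window held at least 1 such peak for 7 of 10 genes in replicate 1, against 65.9% of all genes, for 8 in replicate 2 (69.5%), for 9 in replicate 3 (72.4%) and for 8 in replicate 4 (62.9%). The median fold enrichment, the pileup of a peak over the control background that the peak caller computed, was 1.77 here and 1.86 over all peaks, and 25 of the 68 peaks (36.8%) reached 2, against 40.1% of all. The shares were thus near those of the genome. Replicate 1 alone lacked a peak at 7 loci, and replicate 2 alone at 1. Over the genome replicate 1 had the most Cph-over-control peaks, 21115 against 17453 to 20432 in the others. Its median fold enrichment was the lowest, 1.70 against 1.80 to 2.02. At 19 of the 25 loci all 4 control libraries also had a peak called without a control.

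A shared region, a stretch of at least 200 bp inside Cph-over-control peaks of all 4 replicates, was found for 4 of the 10 genes (*Orc1*, *Orc6*, *Mcm2*, *Mcm7*), with 6 regions in all, against 35.5% of all genes. None of the 10 had a shared region at which every replicate reached a fold enrichment of 2, against 10.4% of all genes. Only 2 of the 6 regions overlapped the gene's own body, 1 in *Orc1* and 1 in *Mcm7*. Without replicate 1 the count rose from 6 to 12 regions, in 6 genes. With any other replicate left out instead it was 6 or 7. Leaving out a replicate loosens the rule for every gene, and the share of all genes under the looser rule is not given. Whether the rise is particular to these genes was therefore not tested.

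**Figure D1:**
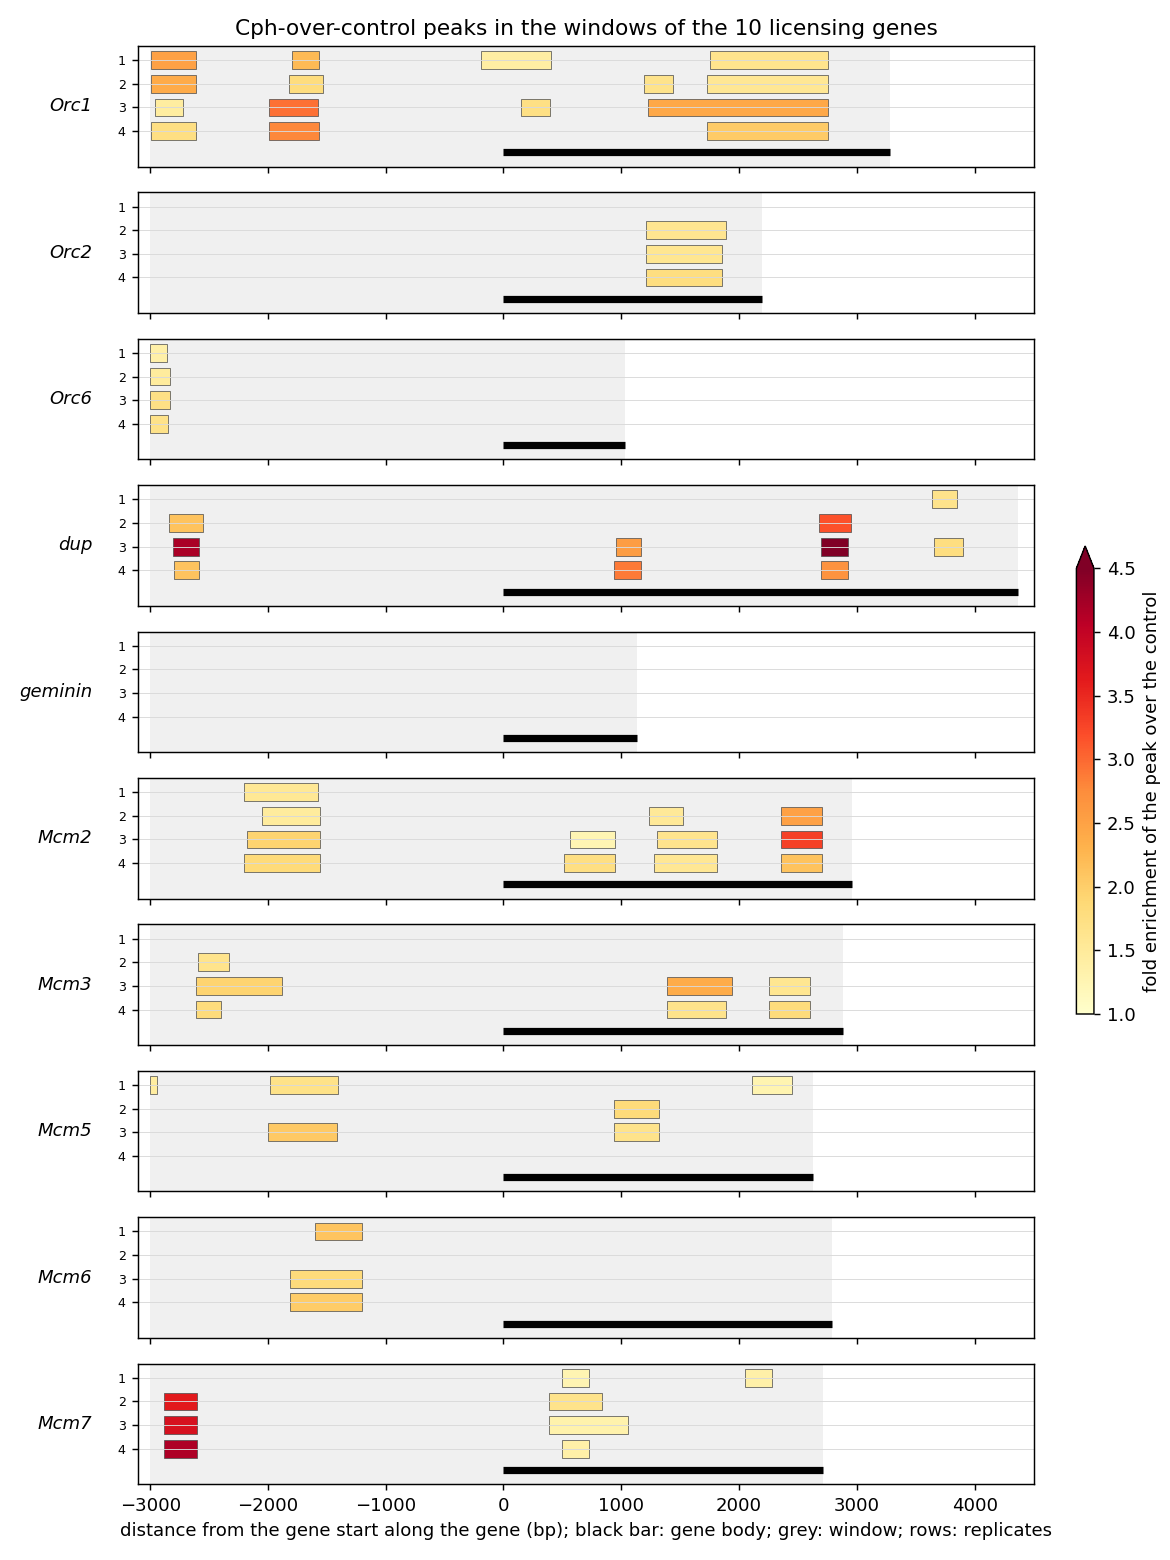
Cph-over-control peaks in the window of each licensing gene, by replicate (1 to 4 from top to bottom), against the distance from the gene start in bp along the gene. Black bars are gene bodies, grey areas the windows and colours the fold enrichment of the peak over the control; *Orc1* had 15 peaks and *geminin* 0, and the fragment at -2881 bp of *Mcm7* had peaks in replicates 2 to 4 but not in replicate 1.

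Among the origin recognition complex genes, *Orc1*, whose product is an ATP-binding subunit, had the most Cph-over-control peaks (15, at 4 loci) and 3 of the 6 shared regions. The shared region in its coding exons (2R:7522965-7523962, 998 bp) gave 1.64, 1.57, 2.42 and 2.04 in the order of the replicates. The other 2 lay upstream, within *Drat*, a neighbour on the same strand. That in a *Drat* coding exon (2R:7527289-7527508) had 2.22, 1.80, 2.95 and 2.78, and that in a *Drat* intron (2R:7528435-7528671) had 2.51, 2.40, 1.45 and 1.74. The exon region was higher in replicates 3 and 4 and the intron region in replicates 1 and 2.

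*Orc2*, which encodes another subunit of the complex, had a single locus, in its own coding exon (3R:13966096-13966775, the printed *Orc2* run lies at its start). It was called in replicates 2, 3 and 4, at 1.61-, 1.597- and 1.77-fold, and not in replicate 1. In the lists without a control, replicate 1 of both genotypes lacked this peak and the other 6 libraries had it. *Orc6*, the smallest subunit, had no peak in its gene body. Its shared region (2R:9849345-9849769, fold enrichments 1.36, 1.47, 1.72 and 1.67) lay in a coding exon of *CG1671* and reached only the distal end of the window.

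*dup*, the loading factor, held the peak of highest fold enrichment in the set. At a coding-exon fragment (2R:15378041-15378313) replicates 2, 3 and 4 gave 3.17, 5.85 and 2.68, and replicate 1 had no Cph-over-control peak although all 8 libraries had a peak there without a control. A fragment in a coding exon of the upstream neighbour *SRPK* (2R:15383539-15383831) was likewise not called in replicate 1, and replicates 2, 3 and 4 gave 2.12, 4.19 and 2.13. In both fragments replicate 3 was the highest. Another *dup* coding exon (2R:15379825-15380047) was called only in replicates 3 and 4, with 2.56 and 2.87. *geminin*, the inhibitor of Dup, was the only gene of the 10 with no Cph-over-control peak in any replicate, and its window had the lowest density of GATC.

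Of the helicase genes, which encode subunits of the heterohexameric MCM ring, *Mcm2* had 12 Cph-over-control peaks at 4 loci. Its last coding-exon locus (3R:8267325-8267675, the printed *Mcm2* run) gave 2.51, 3.31 and 2.13 in replicates 2, 3 and 4 and was not called in replicate 1. Its shared region (3R:8262918-8263398) had 1.56, 1.47, 1.94 and 1.84 and lay in a coding exon of *RPA1*, the gene of the large subunit of the single-stranded DNA-binding protein, on the opposite strand.

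*Mcm7* contained the largest fold enrichments among the helicase genes, at the *dally* fragment (3L:8888715-8888993, the printed *Mcm7* run) from -2881 to -2603 bp relative to its start. *dally* encodes a cell-surface heparan sulfate proteoglycan and lies on the same strand. The values were 3.63, 3.76 and 4.17 in replicates 2, 3 and 4, with no Cph-over-control peak in replicate 1. The shared region within *Mcm7* itself (3L:8892091-8892320) also overlaps an antisense RNA and was much lower, with 1.26, 1.67, 1.32 and 1.36.

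*Mcm3* had 7 peaks at 3 loci and none in replicate 1. A fragment in a coding exon of its opposite-strand neighbour *Rnp4F* (X:5321243-5321972) had 1.64, 1.93 and 1.81 in replicates 2 to 4, and a locus over *Mcm3* coding exons (X:5325244-5325790, the printed *Mcm3* run) had 2.39 and 1.67 in replicates 3 and 4 only. *Mcm5* had 6 peaks at 4 loci, of which no locus was called in over 2 replicates and none in replicate 4. Its coding-exon locus with the printed run (3R:10789462-10789845) had 1.84 and 1.66 in replicates 2 and 3. *Mcm6* had no Cph-over-control peak in its own body. Its single locus, in *CG3198* (X:6672576-6673183), had 2.11, 1.83 and 2.01 in replicates 1, 3 and 4, and was the only locus that replicate 2 alone lacked.

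To compare genotypes without the paired calling, the share of each window in peaks called without a control was computed for each library. *Orc1* and *Mcm2* had the highest means in Cph NanoDam, 46.7% ± 4.20 and 44.5% ± 5.13 (SD, n = 4), and *Orc6* the lowest. In the order of means (*Orc1*, *Mcm2*, *Mcm5*, *Mcm3*, *dup*, *Mcm7*, *Mcm6*, *Orc2*, *geminin*, *Orc6*) the ranges of neighbours overlapped except between *geminin* and *Orc6*.

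The *Mcm2* window had 46.8, 38.2, 42.8 and 50.1% of its bases in peaks in Cph NanoDam replicates 1 to 4, and 53.3, 63.8, 68.6 and 61.5% in the control. All Cph libraries were below all control libraries. The means were 44.5% ± 5.13 and 61.8% ± 6.39 (SD, n = 4 each; exact two-sided permutation test, p = 0.0286, the smallest that 70 arrangements allow; adjusted p = 0.349 over all genes). The stretch from *RPA1* across the *Mcm2* start was a single peak of 2246 to 2420 bp in control replicates 1, 3 and 4, whereas the peak at its *RPA1* end was 1731 bp in control replicate 2 and 514 to 1792 bp in the Cph libraries, with shorter separate peaks nearer the start in control replicate 2 and Cph replicates 3 and 4. In the gene body alone the difference, Cph minus control, was -0.956 percentage points against -17.3 in the whole window (exact permutation p = 0.971), so it lay in the upstream part shared with *RPA1*. The groups overlapped relative to each library's share of the genome in peaks (exact permutation p = 0.0571), at a fold enrichment of at least 2 (p = 0.714) and by number of peaks, where the Cph mean was higher by 0.25 peaks.

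The *Mcm7* window showed the same order, with 25.3, 20.5, 21.7 and 20.4% in Cph NanoDam and 35.1, 36.4, 31.1 and 27.0% in the control. These ranges also did not overlap. In the gene body of *Mcm7* alone the difference was -21.9 points, also without overlap, and the groups stayed apart relative to the share of the genome but overlapped at a fold enrichment of at least 2 (exact permutation p = 0.0571) and by number of peaks (0.25 higher in Cph NanoDam). The means were 22.0% ± 2.27 and 32.4% ± 4.24 (SD, n = 4 each; exact two-sided permutation test, p = 0.0286, adjusted p = 0.349). With the library of each number as a pair, p was 0.125 for both genes in the exact permutation test with 4 pairs, the smallest that 16 arrangements allow. Without pair 1 the differences were -20.9 points for *Mcm2* and -10.6 for *Mcm7*, and *Orc2* joined the genes whose groups did not overlap (exact permutation p = 0.1 each, the smallest for 3 against 3). Groups of 3 are apart more readily than groups of 4, and the share of all genes apart at 3 against 3 is not given. With all 4 replicates, *Mcm2* and *Mcm7* were 2 of the 10 genes, against 6.54% of all genes with all Cph libraries below all control libraries. The opposite order was found for 0 of the 10, against 1.66%. No gene of the 10 and 0 of 16233 genes passed the adjusted threshold (percent called: 0). With 0.0286 as the smallest exact permutation p, a gene passes the adjustment only if very many genes share that value. At an unadjusted exact permutation p under 0.05, the counts were 2 of the 10 and 1330 of all (8.19%).

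**Figure D2:**
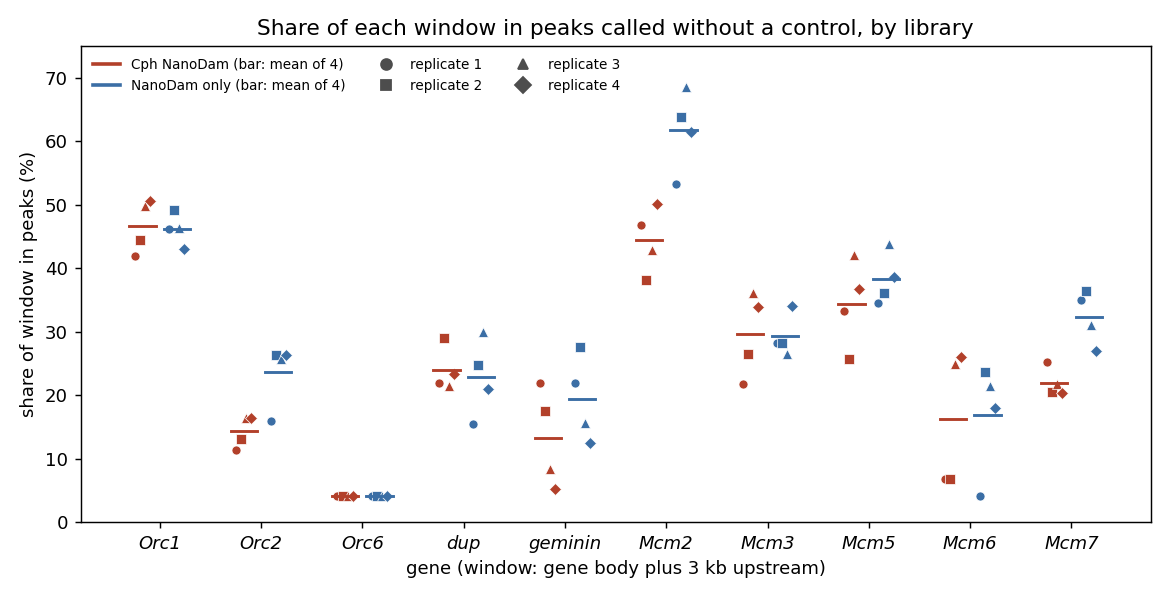
Share of each window, in percent, inside peaks called without a control, for each of the 8 libraries. Red points are Cph NanoDam, blue points NanoDam only, shapes are replicates and bars are means of 4; red and blue points are apart for *Mcm2* and *Mcm7* and overlap or coincide for the other 8 genes.

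For the other genes the groups overlapped. *Orc2* had 11.4, 13.1, 16.4 and 16.4% in Cph NanoDam and 15.9, 26.4, 25.7 and 26.3% in the control, and was lower in Cph NanoDam in 4 of 4 pairs (exact two-sided permutation test, n = 4 each, p = 0.0857, adjusted p = 0.487). Only control replicate 1 reached into the range of the Cph libraries. *geminin* had 21.9, 17.6, 8.45 and 5.23% against 21.9, 27.6, 15.7 and 12.5%, all of it in *sced*, the opposite-strand neighbour upstream. In both groups replicates 1 and 2 were above replicates 3 and 4. *Mcm6* ranged from 6.87 to 26.1% in Cph NanoDam and from 4.15 to 23.7% in the control, with replicates 1 and 2 of Cph NanoDam and replicate 1 of the control at the low end. *Orc6* had 4.15% in all 8 libraries, which is the edge of the *CG1671* peak. The median difference, Cph minus control, was -2.21 percentage points over the 10 genes and -1.28 over all genes, and 6 of 10 had a lower mean in Cph NanoDam, against 65.2% of all. Within each pair the Cph library was shallower and covered less of the genome, while the ranges of the 2 genotypes overlapped in both. The part of depth in these differences was not tested.

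In none of the 10 windows did the 4 Cph libraries share a stretch of at least 200 bp in peaks that every control library lacked, against 2.28% of all genes. The opposite was found for 2 genes, against 3.39% of all. In the *Orc2* window it was 308 bp in a coding exon of *Kots* (3R:13962975-13963282), where the control peaks had fold enrichments over their own background of 2.00, 1.38, 1.69 and 1.84. In the *dup* window it was 203 bp in a coding exon of *SRPK* (2R:15381997-15382199), with 1.46, 1.84, 2.35 and 1.98. At both places Cph libraries had peaks that began or ended beside the stretch: 3 of 4 for *Kots* and 4 of 4 for *SRPK*. Of the 29 loci in the lists without a control, 20 were present in all 8 libraries, 0 in control libraries alone and 1 in a Cph library alone, an intron of *dup* in replicate 1.

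Strength was compared at regions of at least 200 bp that lay inside the peaks of all 8 libraries, as log2 of the scaled pileup, which is the pileup per 1000000 reads of the library (limma with the replicate number as a block, Benjamini-Hochberg adjustment over 16229 regions). The 10 windows held 20 such regions, in 8 genes other than *Mcm6* and *Orc2*. The pileup of a library is a mean over its whole peak, so values cover the same bases only where peak outlines match. Only 1 of 20 was higher in Cph NanoDam, against 7.74% of all regions, and 0 were lower, against 1.52%. At an unadjusted p under 0.05 in limma, 3 of 20 were higher, against 21.3% of all, and 0 lower, against 6.0%. The median log2 difference was 0.14 over the 20 regions and 0.16 over all, and 12 of the 20 and 66.3% of all were positive. Of all regions called, 1256 were higher and 246 lower (83.6% higher); with each library centred on its median, which moved the median of all regions from 0.16 to -0.02, the split was 962 to 794 (54.8% higher).

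The region called was the *dally* fragment in the *Mcm7* window. Its scaled pileup was 5.14, 12.2, 10.001 and 11.03 in Cph NanoDam replicates 1 to 4 and 5.52, 5.55, 4.78 and 4.65 in the control. Cph replicates 2 to 4 were above every control library, and Cph replicate 1 was within the control range. The peak had the same 279 bp outline in all 8 libraries, between the GATC at the start of the printed run and the next one. The mean log2 pileup was 3.19 ± 0.56 against 2.35 ± 0.13 (SD, n = 4 each), a difference of 0.84 (SE 0.23; limma, adjusted p = 0.0380), which is a 1.79-fold higher pileup in Cph NanoDam, in 3 of 4 pairs. Without pair 1 the difference was 1.15 (limma, adjusted p = 0.00661), and without the replicate block the adjusted p in limma was 0.131. Without pair 2, 3 or 4 the difference was 0.74, 0.76 and 0.70 and no longer passed (limma, adjusted p = 0.160, 0.127 and 0.127). Over 10 alternatives the log2 difference ranged from 0.67 to 1.15 and the adjusted p from 0.00661 to 0.160, with 5 under 0.05.

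The coding-exon fragment of *dup*, which had the highest fold enrichment, was not called. Its scaled pileup was 15.1, 9.30, 28.6 and 23.4 in Cph NanoDam and 17.2, 11.4, 8.41 and 15.6 in the control. Replicates 3 and 4 were higher in Cph NanoDam, and replicates 1 and 2 were lower. The log2 difference was 0.46 (SE 0.30; limma, adjusted p = 0.335). The Cph replicate 2 peak was 1175 bp long where the other libraries had 223 to 239 bp. Since the pileup is a mean over the peak, its value is averaged over a longer stretch. The same limit holds at the *SRPK* fragment, where peaks were 416, 514, 215 and 626 bp in Cph NanoDam and 415 to 480 bp in the control. The *SRPK* fragment had 9.07, 13.5, 27.1 and 9.63 against 10.8, 7.40, 7.26 and 10.2, a difference of 0.61 (SE 0.30; limma, adjusted p = 0.209), with 2 of 4 pairs higher. Without pair 1 the differences at the *dup* and *SRPK* fragments were 0.68 and 0.90 (limma, adjusted p = 0.163 and 0.0721), and without pair 3 they were 0.0308 and 0.18 (limma, adjusted p = 0.976 and 0.804), so both values rested largely on pair 3.

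At *Orc1* both *Drat* regions were higher in Cph NanoDam in 4 of 4 pairs, without passing the threshold. The exon region had 22.2, 31.3, 24.4 and 22.9 scaled pileup in Cph NanoDam and 16.9, 24.6, 17.4 and 13.5 in the control (log2 difference 0.50, SE 0.21; limma, adjusted p = 0.153). The intron region had 20.6, 24.4, 8.01 and 10.2 against 12.2, 14.8, 7.27 and 6.77 (0.55, SE 0.20; limma, adjusted p = 0.1003). In the intron region replicates 1 and 2 of both genotypes were above replicates 3 and 4. The region across the *Orc1* start (2R:7525376-7525937) was lower in 4 of 4 pairs, with 9.54, 9.38, 12.3 and 10.98 against 10.3, 11.5, 16.1 and 13.2 (log2 difference -0.27, SE 0.19; limma, adjusted p = 0.399).

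**Figure D3:**
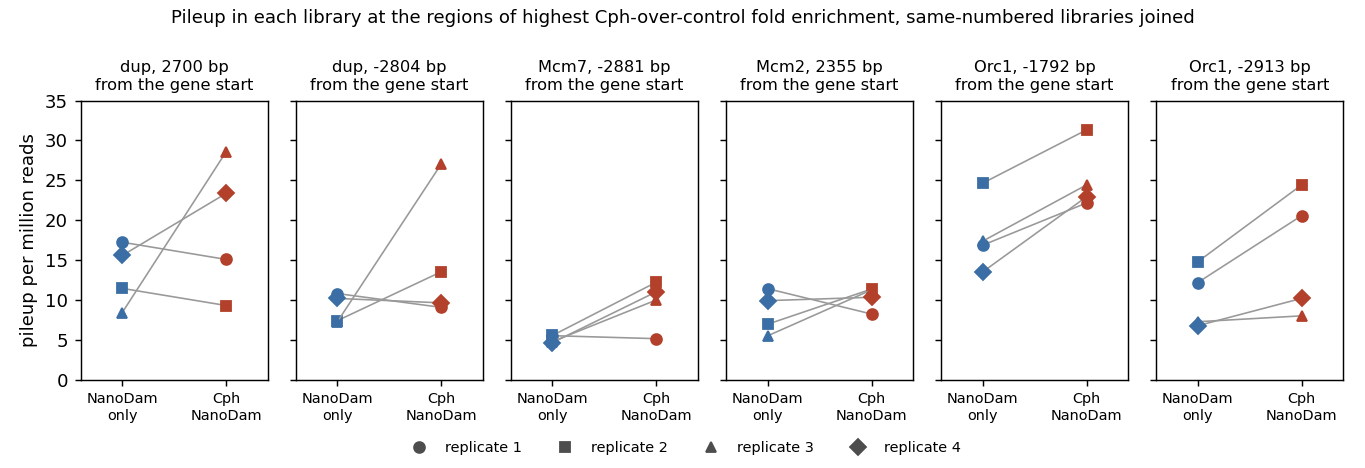
Scaled pileup (per 1000000 reads) in each library at the 6 common regions of highest Cph-over-control fold enrichment, control on the left and Cph NanoDam on the right of each panel, with libraries of the same number joined. Lines rise in 4 of 4 pairs for both *Orc1* regions and in 3 of 4 for *Mcm7*, and for *dup* they run in both directions.

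The last coding-exon locus of *Mcm2* had 8.23, 11.4, 11.3 and 10.3 scaled pileup in Cph NanoDam and 11.4, 6.95, 5.50 and 9.91 in the control. Pair 1 was opposite to the other 3, and the log2 difference was 0.33 (SE 0.24, limma, adjusted p = 0.401). Without pair 1, 2, 3 or 4 this difference was 0.60, 0.21, 0.0989 and 0.42 (limma, adjusted p = 0.0952, 0.728, 0.902 and 0.423). The *Rnp4F* region of *Mcm3* had 5.23, 8.12, 17.9 and 8.17 against 5.58, 5.49, 7.38 and 8.16 (0.44, SE 0.23; limma, adjusted p = 0.245), and replicate 3 of Cph NanoDam was above every other library there; without pair 3 the difference was 0.16 (limma, adjusted p = 0.811). At *Rnp4F* the peaks were 733, 766, 727 and 2586 bp long in Cph replicates 1 to 4 and 1511 to 2624 bp in the control. These pileups are therefore averaged over unlike stretches. The remaining 12 of the 20 regions, counting those of *Mcm5*, *Orc6* and *geminin*, had log2 differences from -0.28 to 0.38, with limma adjusted p of 0.308 or more. The *sced* region in the *geminin* window was among them, at 0.04 (SE 0.19; limma, adjusted p = 0.923).

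**Figure D4:**
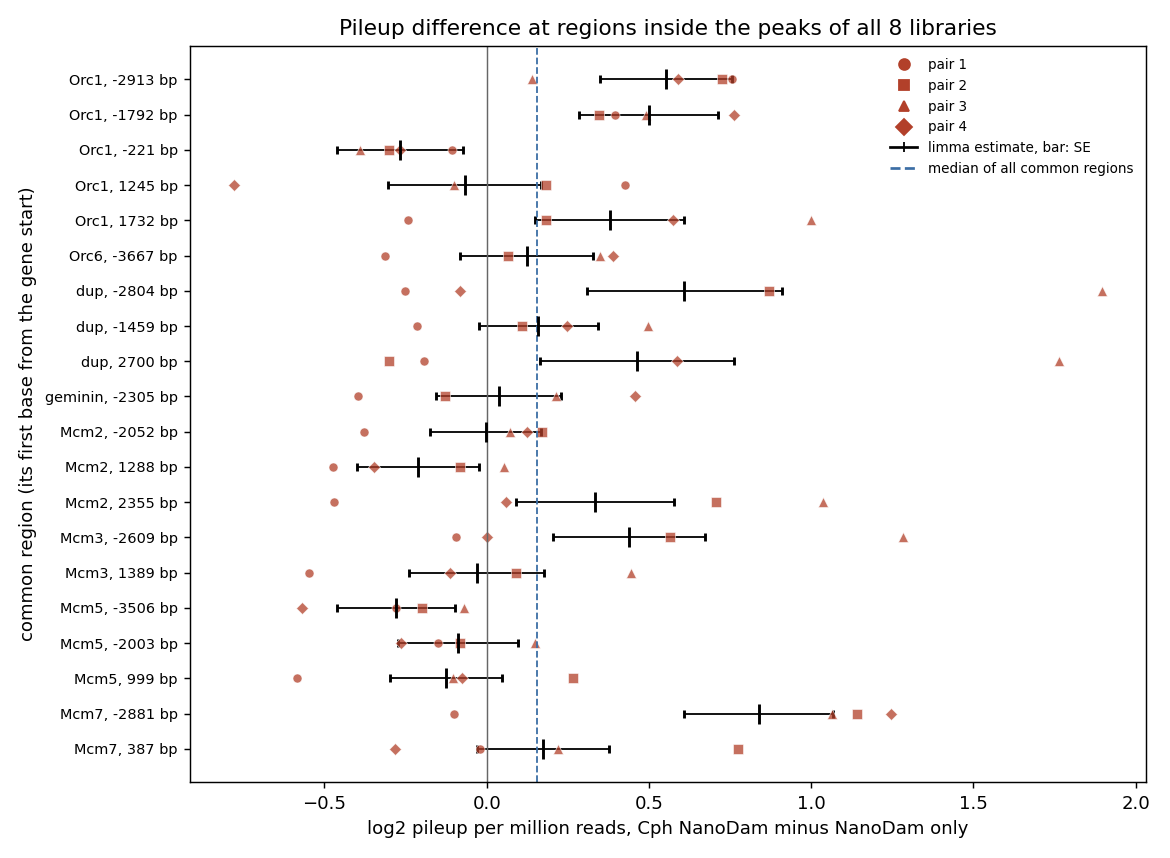
Difference in log2 scaled pileup, Cph NanoDam minus NanoDam only, at the 20 common regions in the windows, each named by the distance of its first base from the gene start. Points are the 4 pairs, vertical ticks with bars the limma estimate and its SE, and the dashed line the median of all common regions (0.16); pair 1 is the lowest of the 4 in 12 of the 20 regions, and the *Mcm7* region at -2881 bp has the largest estimate (0.84).

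Fold enrichment in the Cph-over-control lists and the pileup ratio of the same 2 libraries were set side by side, a comparison made after the values had been seen. At the common regions of the 10 windows a Cph-over-control peak was present in 53 combinations of region and replicate, and at 51 the fold enrichment was above the ratio of scaled pileups (medians 1.81 and 1.14). Only called peaks enter, with a lowest fold enrichment of 1.26 in the windows, while the ratio has no such floor. The highest value was taken where several peaks overlapped a region. This choice by itself favours a fold enrichment above the ratio. At 16 of 53 (30.2%) the scaled pileup was not higher in Cph NanoDam than in the control, against 22.0% over all 44653 such combinations of the genome. In replicate 4 the *SRPK* fragment had a fold enrichment of 2.13 at a pileup ratio of 0.946. The last coding-exon locus of *Mcm2* had 2.13 at 1.04 in that replicate. Where the peaks without a control had the same outline in both libraries, the 2 pileups cover the same bases. There the fold enrichment was above the ratio at 9 of 9 (medians 3.31 and 2.05). Over the genome it was above at 99.7% of 6080, of which 18.0% had no higher pileup in Cph NanoDam. The outline of the Cph-over-control peak was not part of this match. The cause was not tested.

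Gene starts were mostly outside the peaks. The start lay in a peak called without a control for *Orc1* (4 Cph and 4 control libraries) and *Mcm2* (1 Cph and 4 control libraries) and for none of the other 8, which is 2 of 10 against 25.6% of all genes. In the Cph-over-control lists it was *Orc1* alone, in 1 replicate, against 14.3% of all genes. In the stretch from 250 bases before to 50 after the start, on both strands and with all overlaps counted, an E2F octamer (TTTCCCGC, TTTCGCGC, TTTGCCGC or TTTGGCGC) was present in 6 of 10 (*Orc1*, *Orc6*, *Mcm2*, *Mcm3*, *Mcm5*, *Mcm6*), against 5.97% of all such stretches. The DRE palindrome TATCGATA, known in flies as the site of DREF, was present in *Orc2* alone, against 7.48%. TGACCA, known as a binding motif of human BCL11A, was present in *Mcm3* alone, against 14.03%. GATC itself was present in 5 of 10, against 46.5%, so the other 5 starts had no methylation site within these 300 bases.

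Of 33 other genes of DNA replication and its control, 16 had a shared region, against the 35.5% of all genes given above, and 3 had one at a fold enrichment of at least 2 in every replicate, against 10.4%. These were *Orc3* (4.32, 3.91, 2.31 and 2.14 in replicates 1 to 4), a further subunit of the origin recognition complex, *chif* (2.01, 3.12, 5.48 and 2.42), the regulatory subunit of the Cdc7 kinase, and *dap* (2.2, 2.31, 2.18 and 2.17), an inhibitor of Cyclin E/Cdk2. By class, 7 of 14 licensing and firing genes, 5 of 9 genes of E2F and licensing control and 4 of 10 S phase enzymes had a shared region. The share of the window in peaks had a lower mean in Cph NanoDam for 24 of 33 (65.2% of all genes), all Cph libraries were below all control libraries for 4 (*RecQ4*, *E2f1*, *RPA1* and *Fen1*; 6.54% of all genes) and above for 0 (1.66%), and none passed the adjusted threshold. The *RPA1* and *Mcm2* windows share bases. Among 75 common regions in these windows, pileup was higher in Cph NanoDam at 1 of *chif* (log2 difference 0.95, SE 0.23; limma, adjusted p = 0.0237) and 1 of *E2f1* (0.79, SE 0.20; limma, adjusted p = 0.0298), the activating E2F, and lower at 1 of *Cul4* (-0.82, SE 0.22; limma, adjusted p = 0.0324), the scaffold of a ubiquitin ligase that targets Cdt1. These 2 higher and 1 lower of 75 stand against 7.74 and 1.52% of all regions.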

How the data were processed

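Midgut NanoDam libraries (4 Cph NanoDam, 4 NanoDam only; 86 bp single-end reads) were analysed from deposited peak lists. The authors trimmed reads (Trim Galore 0.6.10), aligned them with Bowtie2 2.5.4 to BDGP6 (release 6), kept unique alignments (SAMtools 1.20) and called broad peaks per library with MACS (2.1.4 per the file headers, 2.2.9.1 per the labels; q 0.05, broad cutoff 0.1, genome size 140000000, all duplicates kept). The deposited values of each peak are the pileup, a signal that was not scaled for depth, the fold enrichment, a ratio to the background, and −log10 of p and q, all computed by the peak caller. For a broad peak they are means over its length. Since the lists hold no counts at a site, its depth is unknown and intervals of counting error are left out. Each list was deposited in several forms, and those compared held the same peaks. The peak annotations made with ChIPseeker 1.38.0 were not used here.

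Genes were those of Ensembl release 115 on the same assembly, whose chromosome lengths contain all peaks. Pileup was scaled to 1000000 of the reads that MACS recorded and averaged over the peaks of a library in a region, weighted by overlap. It was not scaled for the fragment length that MACS recorded. This was 215, 248, 209 and 212 bp in Cph replicates 1 to 4 and 226, 231, 194 and 198 bp in the control. The part of fragment length in the pileup differences was not tested. Tests were limma 3.58.1 in R 4.3.3 (trend, replicate number as a block) across all common regions and an exact permutation test in Python 3.11.15 (numpy 2.4.6, scipy 1.17.1) across all genes, with Benjamini-Hochberg adjustment and a threshold of 0.05. The tests were checked on simulated data.

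Libraries of equal number were treated as pairs, because the Cph-over-control lists were called that way by the authors and because, after the group mean was subtracted at each common region, such libraries correlated with r = 0.508, 0.403, 0.430 and 0.479, above the minimum of 0.1 in every pair. Across numbers 3 and 4 the values were as high (0.524 and 0.483). Across numbers 1 and 2 they were 0.324 and 0.112, also above the minimum. Between replicates 1-2 and replicates 3-4 all values were negative. With the group mean subtracted, positive values within a set by themselves favour negative ones between sets. The minimum therefore does not tell libraries of equal number from others of the same set. The labels call the replicates biological. All 10 genes were named; of the other pathway genes, those past a fold enrichment of 2 in every replicate, past the adjusted threshold or with groups that did not overlap, the last added after their values were seen. The genes, lists and tests were chosen with earlier results of these data known. Alternatives covered thresholds, minimum length, window, scaling, blocks and each replicate left out.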

Additional observations from a re-analysis of the deposited data

Results flagged for a closer look

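In 66 groups of 4 libraries examined (window shares and log2 pileups of the 10 genes in each genotype, and the fold enrichments of the 6 loci called in all 4 replicates), 3 had 1 library apart from the other 3 by a gap that took up most of the group's range; chance alone gives about 1 in 20. In the control libraries the *Orc2* window had 15.9% of its bases in peaks in replicate 1 and 26.4, 25.7 and 26.3% in replicates 2 to 4, with a gap of 0.934 of the range. The log2 scaled pileup of the *CG1671* region in the *Orc6* window (2R, from 9849319) was 3.11 in Cph replicate 1 and 3.62, 3.55 and 3.57 in replicates 2 to 4 (0.864 of the range). That of the *Mcm2* coding-exon region from 3R position 8266258 was 2.44 in Cph replicate 4 and 2.81, 2.84 and 2.79 in replicates 1 to 3 (0.886 of the range). In the first 2 the library apart was of replicate 1.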

How the results depend on the processing

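Peak lists give no reads per site, so the depth behind a value is unknown, and 4 pairs cannot pass a permutation threshold of 0.05. Shared regions (6 in 4 genes) were 13 in 7 with 3 of 4 replicates required, 22 in 9 with 2 of 4, 0 at a fold enrichment of at least 2 or 3, 1 in 1 at a minimum of 500 bp, 2 in 2 in gene bodies alone, and 6 to 12 regions in 4 to 6 genes with a replicate left out. The 2 stretches of control libraries alone were 0 at a fold enrichment of at least 2 and 2 to 4 with a replicate left out (4 without replicate 1 and 4 without replicate 4). Asking for fewer lists loosens both rules for every gene, and the share of all genes under such rules is not given.

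The 2 genes with shares that did not overlap were 0 at a fold enrichment of at least 2 and by number of peaks, 1 in gene bodies alone and 1 relative to the share of the genome (*Mcm7* in both), and 2 to 3 with a replicate left out. For 3 against 3 no share of all genes is given. No gene of the 10 had an adjusted p under 0.05 in any alternative. This was fixed in advance with a replicate left out, in pairs, and with replicates 1-2 and 3-4 as blocks. The smallest exact permutation p there are 0.1, 0.125 and 0.0556. Elsewhere the smallest is 0.0286, which passes the adjustment only if very many genes share it. The replicate block does not enter the overlap of the groups and, in pairs, allows no exact permutation p under 0.125. It could therefore change neither count. The region called higher in Cph NanoDam (1) was 0 without the replicate block, on log2 fold enrichment and at a minimum of 500 bp, which leaves 7 regions of the 10 genes, and 0 to 1 with a replicate left out (0 without replicate 2, 3 or 4); with the batch label as a block it was 1. Over all regions the calls were 1256 higher and 246 lower, 118 and 13 without the replicate block, 1118 and 180 with the batch label as a block, 127 and 42 on log2 fold enrichment, 623 and 238 at 500 bp, 2606 and 346 without replicate 1, 181 and 42 without replicate 2, 417 and 59 without replicate 3, and 712 and 114 without replicate 4.

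Window shares changed sign in 15 of 120 alternative values and kept sign and side in 89. The blocks alter only the p, and *Orc6* had a difference of 0, so those values could not change sign and the tally overstates stability. At a fold enrichment of at least 2 the Cph-minus-control difference was -1.20 for *Mcm3* (0.302 in the report's setting), 6.84 for *Mcm6* (-0.622) and 1.86 for *geminin* (-6.12). By number of peaks it was 0.25 for *Mcm2* (-17.3), 0.25 for *Mcm7* (-10.4) and -0.25 for *Orc1* (0.466). Relative to the genome's share it was 0.012 for *Mcm5* (-3.80) and 0.112 for *Mcm6*. In the gene body alone *Orc2* was at 0.445 (-9.28), and within 3000 bp of the start *dup* was at -2.27 (1.14). With a replicate left out, *Mcm3* ranged from -2.80 to 2.58, *Mcm6* from -3.52 to 4.77, *Orc1* from -1.86 to 2.2 and *dup* from -0.606 to 4.37.

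Pileup differences changed sign in 15 of 207 and kept sign and side in 187. Leaving out the replicate block, or using the batch label as a block, repeats the same difference, so those values could not change sign either. With median centring, log2 was -0.14 for *geminin* (0.04), -0.0498 for *Orc6* (0.12) and -0.0132 for the *SRPK* region at 15382233 of *dup* (0.16). On log2 fold enrichment it was -0.14 for *Orc6*, 0.15 for *Mcm2* at 8262918 (0.00), 0.12 for *Mcm5* at 10786521 (-0.09), 0.20 for *Mcm5* at 10789523 (-0.12) and 0.14 for *Mcm3* at 5325244 (-0.03). With a replicate left out, the ranges that crossed 0 were -0.10 to 0.18 for *geminin*, -0.23 to 0.17 for *Orc1* at 7524269, -0.0275 to 0.33 for *Mcm7* at 8891983, -0.0609 to 0.12 for *Mcm2* at 8262918, -0.25 to 0.0284 for *Mcm5* at 10789523 and -0.19 to 0.14 for *Mcm3* at 5325244. The causes were not tested.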
